A study of Mus musculus with 22 samples.

Results

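The 10 growth factor receptors described here are genes through which fibroblasts sense mitogens in serum: Pdgfra, Pdgfrb, Fgfr1, Fgfr2, Egfr, Igf1r, Insr, Met, Axl and Ghr. They were chosen by name, by matching the symbol column of the deposited expression table, and all 10 were found among its 11208 genes. RNA had been sequenced from NIH/3T3 cells, an immortalized mouse embryonic fibroblast line, into which a doxycycline-inducible construct was stably integrated. In the E2F1 line the construct carried E2F1, a transcription factor of the cell cycle, and in the EV line it was an empty vector. Every group, the 0 h controls included, had first been held for 48 h in medium with 0.25% serum, which brings these cells to a resting state. The E2F1 line was then sampled at 0, 2, 6 and 12 h of 500 ng/ml doxycycline, as was the EV line, and EV cells were also sampled after 2, 6 or 12 h in 10% serum. This gave 11 groups of 2 libraries, 22 in all, and the EV 0 h libraries served as the start of both EV series. Whether each line is 1 clone or a pool is not given in the sources used here.

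All of these genes but Ghr encode receptor tyrosine kinases, membrane proteins that work in pairs and phosphorylate each other within the pair once a ligand binds. The phosphorylated tails recruit adaptors such as Grb2, Shc1 and the regulatory subunits of PI3-kinase, and so drive the Ras-ERK and AKT routes that carry a resting fibroblast towards division. Ghr encodes the growth hormone receptor, a cytokine receptor without a kinase of its own that signals through Jak2 and Stat5. Platelet-derived growth factor is a classic serum mitogen for NIH/3T3 cells, and E2F1 acts downstream of all these receptors, at the step where cells commit to copying their DNA. Measuring the receptors after E2F1 alone and after serum therefore asks how the input end of the growth signal looked when only its output end was switched on.

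Expression was deposited as normalized counts that the authors had rounded to whole numbers, with totals of 34014608 to 46057140 per library. The mouse gene E2f1 had 1703 and 1637 normalized counts before induction in the E2F1 line, 1535 and 1755 at 2 h, 3806 and 3602 at 6 h, and 2683 and 2845 at 12 h. Whether these counts include transcripts of the construct was not tested. The log2 change was -0.02 at 2 h, which did not pass the test described below, and 1.15 and 0.73 at 6 and 12 h, which did. E2f1 in the EV line started at 1635 and 1655, and after serum it was lower at 2 and 6 h (log2 change -1.09 and -0.63) and higher at 12 h (1.43), when 4615 and 4247 lay above every library of the E2F1 line. With doxycycline alone it did not pass. Of 12 fibroblast markers 11 were present, with summed values of 717136 to 1477824, and Fap was absent. Markers of epithelial, endothelial, muscle and fat cells were all absent from the table, 1 of 7 immune markers was present (Csf1r, 33 to 735), and 2 of 5 neural markers were present (Map2 and Tubb3, summing to 276 to 1277). The libraries at 2 h stood apart. Outside them, 10 genes differed between the lines by 4-fold or more, all towards the E2F1 line; in both EV libraries at 2 h of doxycycline, 9 of these 10 lay above every EV library of the other times. Their median there was 18.2% of the E2F1-line mean, against 4.12% in the other EV libraries. In EV serum at 2 h, 7 of the 10 lay above those libraries, with a median of 11.8%, and in the E2F1 line at 2 h, 5 of the 10 lay below all other E2F1 libraries, with a median of 66.6%. What part this plays in the values at 2 h was not tested.

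At rest, the receptors spanned a wide range of levels, compared here as normalized counts per kb of exon. In the EV line at 0 h, Pdgfra led with 6434 ± 973 per kb (SD, n = 2), followed by Axl with 4817 ± 202. Next came Fgfr1 and Pdgfrb with 1546 ± 402 and 1217 ± 141, which overlapped. Igf1r, Ghr and Met followed at 596, 576 and 537, each overlapping its neighbour, and then Fgfr2 at 210, Insr at 180 and Egfr at 46.2. In the E2F1 line at 0 h Axl came first with 5528 ± 286 and Pdgfra second with 4842 ± 296, without overlap. There Ghr, at 893 ± 34.1, stood above Met (665) and Igf1r (642), which overlapped, as did Insr (197) and Fgfr2 (188). Egfr was again last, at 77.7.

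Before any E2F1 was induced the lines differed in 3 receptors, all higher in the E2F1 line, in a comparison in which 15% of all genes passed the same test. Each test here is limma on log2(value + 1) with Benjamini-Hochberg adjustment over all genes, with a threshold of 0.05, and fold changes are on that scale. Ghr was 1.55-fold higher (adjusted p = 1.97e-05), Egfr 1.69-fold (adjusted p = 0.013) and Met 1.24-fold (adjusted p = 0.0439). When only the 2 groups compared were fitted the calls for Egfr and Met were lost (adjusted p = 0.0503 and 0.102). That for Egfr was also lost without the second replicate of the E2F1 line or of the EV line (adjusted p = 0.116 and 0.126). That for Met was lost without either E2F1-line library (adjusted p = 0.167 and 0.136) or the first EV library (adjusted p = 0.309). The labels do not say that replicates were separate cultures, so these p-values measure only the spread between these libraries.

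Along the time courses, all 10 receptors passed the test after 12 h of E2F1: 9 were lower and only Met was higher, where 61.5% of all genes passed (29.7% of all genes as lower and 31.8% as higher). The median log2 change of the 10 was -0.66, against -0.02 for all genes. In bulk RNA of this kind, fewer cells that express a gene and less RNA per cell cannot be told apart. Fibroblast markers moved at the same time, with 9 of 11 lower and 1 higher at a median of -0.44, among them Col1a1 at -0.96, and their part in the result was not tested. At 6 h of E2F1, 7 receptors had passed (2 higher, 5 lower), against 51.7% of all genes (28.8% higher, 22.9% lower). At 2 h none had, at 3 with an unadjusted p under 0.05 (1.86% of all genes passed). Leaving out each library of the groups compared in turn left 7 to 10 receptors at 12 h and 4 to 6 at 6 h.

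Doxycycline without E2F1 moved few of these genes. In the EV line 2 receptors passed at 2 h (Ghr higher, Fgfr2 lower; 7.35% of all genes), none at 6 h with 1 at an unadjusted p under 0.05 (0.134% of all genes), and Ghr alone at 12 h (4.17%). Serum moved more: 7 receptors passed at 2 h (4 higher, 3 lower), against 70.9% of all genes (37.5% higher, 33.5% lower), 6 at 6 h (1 higher, 5 lower; 67.5%) and 8 at 12 h (2 higher, 6 lower; 65.7%). The median log2 change of the 10 after serum went from 0.14 at 2 h to -0.63 at 12 h, against 0.03 and 0.05 for all genes, of which 36% passed as higher and 29.7% as lower at 12 h. Of 11 fibroblast markers 2 were higher and 4 lower at 12 h of serum, with Thy1 at 1.42, Col3a1 at -3.20 and Vim at -0.79. What part the fibroblast markers play in the serum results was not tested. The immune marker Csf1r was higher at 2, 6 and 12 h of serum (log2 change 1.71, 1.49 and 1.46), the other 6 immune markers being absent, and its part in the serum results was not tested. The neural markers moved apart: Map2 was at 2.12 and Tubb3 at -1.66 after 12 h of E2F1, and Map2 was at -1.12 and Tubb3 at 0.90 after 12 h of serum, and their part was not tested either. Which receptors moved, and when, differed from gene to gene.

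**Figure D1:**
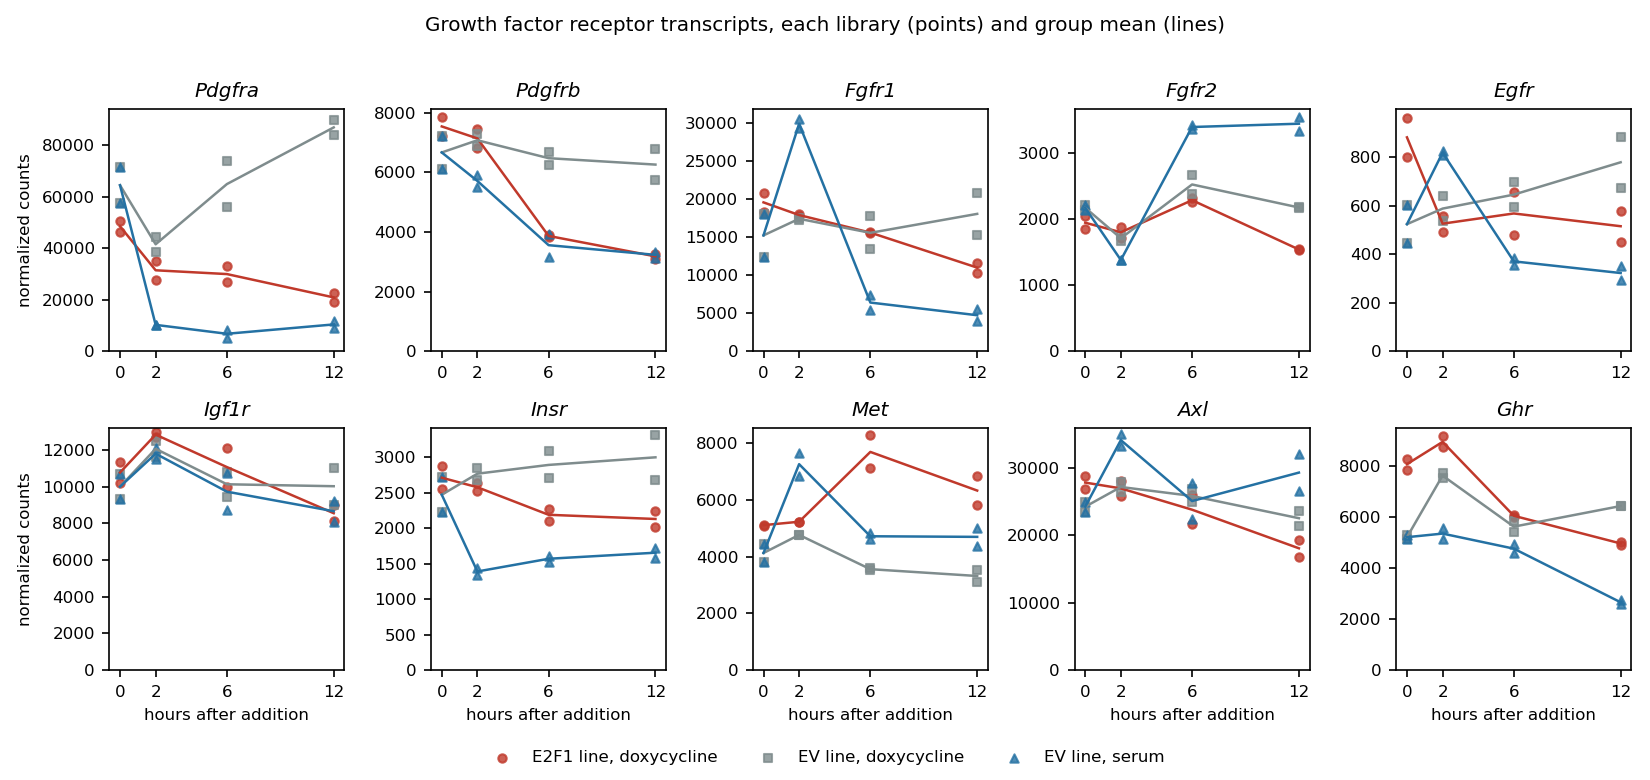
Normalized counts of each receptor (y axis, from 0, own scale per panel) against hours after addition (x axis); points are single libraries and lines join group means. The EV libraries at 0 h are drawn for both the doxycycline and the serum series. Pdgfra falls to between 5245 and 11978 under serum, Fgfr1 peaks at 2 h of serum at 29369 and 30518, and Met is the one receptor above its start at 12 h of E2F1.

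Pdgfra, the alpha receptor for platelet-derived growth factor, showed the largest movement of the 10. The EV libraries held 71387 and 57591 normalized counts at 0 h, and after serum 10326 and 10304 at 2 h, 8469 and 5245 at 6 h, and 11978 and 8986 at 12 h. No serum library came near the 0 h pair. The falls were 6.22-fold at 2 h, 9.62-fold at 6 h and 6.18-fold at 12 h (log2 change -2.64 ± 0.19, -3.27 ± 0.19 and -2.63 ± 0.19, standard error; adjusted p = 9.02e-10, 1.08e-10 and 2.65e-09). At 6 h, 0.535% of all genes had a lower log2 change. Pdgfra was the one receptor that the authors' deposited tables list, which hold only large changes: they give log2 changes of -2.63, -3.26 and -2.60 at 2, 6 and 12 h.

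Pdgfra also fell with E2F1. The E2F1 line held 46438 and 50638 normalized counts at 0 h, 35101 and 27876 at 2 h, 26870 and 33178 at 6 h, and 19279 and 22649 at 12 h. Every library from 2 h on lay below both at 0 h. After 6 h the log2 change was -0.70 (adjusted p = 0.00599), and after 12 h -1.21 ± 0.19 (adjusted p = 3.11e-05), a 2.32-fold fall; without the first 6 h replicate the 6 h call was lost (adjusted p = 0.0771). The EV line with doxycycline went the other way at 12 h, with 89689 and 84154, above both libraries at 0 h, though this did not pass (log2 change 0.44, adjusted p = 0.255). At 2 h of doxycycline both lines had the same log2 change of -0.63, to 38774 and 44388 in the EV line, and neither passed (adjusted p = 0.11 in the E2F1 line and 0.0567 in the EV line). When only the groups compared were fitted both passed (adjusted p = 0.00279 and 0.0478), and the EV change also passed with the replicate number as a block (0.0426).

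The gene lies on chromosome 5 (GRCm38, 75152292 to 75198215, plus strand, GENCODE M21), and 6.5% of its exon bases overlap other genes, among them the antisense Gm42802; whether the counting used strand is not given in the sources used here. Its promoter is printed because it belongs to the receptor with the largest fall. The 250 bases before the RefSeq start (GRCm38.p6, chr5:75152001-75152250, plus strand) hold none of the letters searched on both strands, which would be in capitals.
Pdgfra: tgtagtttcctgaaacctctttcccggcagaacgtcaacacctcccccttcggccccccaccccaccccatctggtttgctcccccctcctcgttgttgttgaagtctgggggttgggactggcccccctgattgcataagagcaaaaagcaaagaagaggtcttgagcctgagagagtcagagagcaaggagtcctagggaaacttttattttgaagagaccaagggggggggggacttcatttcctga
The letters were TTTCCCGC, TTTGGCGC and TTTCGCGC (E2F), TGTTTAC (FOXO), TGANTCA (AP-1), CACGTG (E-box) and GGGCGG (GC box). Of 32817 RefSeq promoters of 300 bases (250 before and 50 after the start), 1.84%, 3.65%, 7.81%, 7.15% and 35.6% hold them, in that order. Promoter windows of 7 of the 10 receptors were searched, and none of these windows holds the E2F letters. Those of Pdgfrb, Fgfr1 and Insr were not searched, so whether they hold the E2F letters was not tested. For Pdgfra, Fgfr2, Igf1r and Axl the end of the window did not match a GENCODE transcript of the gene. The Igf1r window ends at 67952306, before the GENCODE gene start of 67952827. Whether these windows are the promoters in use was not tested.

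Pdgfrb, the beta receptor, which binds the B form of the ligand, fell with either stimulus, to group means at 12 h of 3185 with E2F1 and 3235 with serum. The E2F1 line had 7869 and 7204 normalized counts at 0 h, 6813 and 7457 at 2 h, 3910 and 3828 at 6 h, and 3261 and 3109 at 12 h. The EV line had 7211 and 6119 at 0 h, and after serum 5523 and 5898 at 2 h, 3948 and 3171 at 6 h, and 3137 and 3333 at 12 h. From 6 h on, the groups under E2F1 or serum lay wholly below their starting libraries. The log2 change with E2F1 was -0.96 at 6 h (adjusted p = 5.2e-07). It reached -1.24 ± 0.10 by 12 h (adjusted p = 1.58e-08), a 2.36-fold fall. Serum gave -0.91 after 6 h (adjusted p = 4.95e-07) and, after 12 h, a fall to -1.04 ± 0.10 (adjusted p = 1.21e-07). The 8 EV libraries of 0 h and of doxycycline alone lay between 5742 and 7271, and no time of doxycycline passed the test. At 2 h of serum Pdgfrb did not pass (log2 change -0.22, adjusted p = 0.0705), except without the second EV 0 h replicate (0.0208), and it passed as lower with equal totals, quantile normalization and the EV line in doxycycline as reference (log2 change -0.59, -0.62 and -0.31).

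Fgfr1, the main fibroblast growth factor receptor of mesenchymal cells, rose and then fell with serum. From 18081 and 12461 normalized counts in the EV line at 0 h it went to 29369 and 30518 at 2 h, 7423 and 5442 at 6 h, and 5538 and 3992 at 12 h. The pair at 2 h lay above, and the later pairs below, both starting libraries, which themselves differed most among the EV pairs of this gene. The log2 changes were 1.00 ± 0.19, -1.24 ± 0.19 and -1.67 ± 0.19 (adjusted p = 0.000106, 1.16e-05 and 3.92e-07), so that the 12 h level was 3.19-fold below the start. With E2F1 the line held 20908 and 18317 at 0 h, 18078 and 17813 at 2 h, 15717 and 15555 at 6 h, and 10384 and 11676 at 12 h. Only 12 h passed (log2 change -0.83, adjusted p = 0.000851), and the value at 6 h was -0.32 (adjusted p = 0.154), which passed with quantile normalization (0.0439) and when only the groups compared were fitted (0.00798).

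Fgfr2, a related receptor with its own ligand preferences, moved against Fgfr1 in the serum series. It fell from 2134 and 2209 normalized counts at 0 h to 1375 and 1389 at 2 h, then rose to 3417 and 3368 at 6 h and 3550 and 3335 at 12 h. Replicates were close and no groups overlapped the start. The log2 changes were -0.65, 0.64 and 0.66, each with a standard error of 0.08 (adjusted p = 7.28e-07, 1.12e-06 and 9.37e-07). With E2F1 the gene went from 1850 and 2041 to 2316 and 2257 at 6 h, a log2 change of 0.23 (adjusted p = 0.0197) that was 0.06 with quantile normalization and no longer passed (adjusted p = 0.539), as with equal totals (0.217), when only the groups compared were fitted (0.0543), and without the first replicate of 0 h or of 6 h (adjusted p = 0.18 and 0.0978). At 12 h it was lower, with 1531 and 1551 (log2 change -0.33, adjusted p = 0.00136). In the EV line at 2 h of doxycycline it was lower, at 1669 and 1753 (log2 change -0.34, adjusted p = 0.0138). The call was lost when only the groups compared were fitted (0.0999). It was also lost without the second 0 h, the first 2 h or the second 2 h replicate (log2 change -0.32, -0.31 and -0.38). At 6 and 12 h of doxycycline the EV log2 changes were 0.21 and 0.0032 and did not pass. What part the EV libraries at 2 h, which stood apart above, play here was not tested. The annotated Fgfr2 gene model reaches across neighbouring genes, and 3.04% of its exon bases overlap Ctbp2, a protein-coding gene on the same strand. What share of the Fgfr2 counts this overlap affects was not tested.

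Egfr, the receptor for EGF and its relatives, was the least abundant of the 10. The E2F1 line had 799 and 962 normalized counts at 0 h, 558 and 493 at 2 h, 478 and 657 at 6 h, and 452 and 578 at 12 h, all below the start. The log2 changes of -0.64 at 6 h and -0.78 at 12 h passed (adjusted p = 0.00922 and 0.00185), the first not without the first 6 h or the second 0 h replicate (adjusted p = 0.149 and 0.0952), and that of -0.74 at 2 h did not (adjusted p = 0.0567), though it did with quantile normalization (0.0368) and when only the groups compared were fitted (0.00726). In the EV line it had 603 and 444 at 0 h and, after serum, 826 and 809 at 2 h, 386 and 355 at 6 h, and 352 and 293 at 12 h. Like Fgfr1 it was above the start at 2 h and below it later, with log2 changes of 0.66, -0.48 and -0.69 (adjusted p = 0.00502, 0.0335 and 0.00436). The rise at 2 h no longer passed when libraries were scaled to equal totals (log2 change 0.28), nor the fall at 6 h with quantile normalization (-0.28) or when only the groups compared were fitted (adjusted p = 0.0741). The 2 h call was lost without the second 0 h replicate (adjusted p = 0.0908). At 6 h it was lost without the first 0 h replicate or either 6 h library (adjusted p = 0.322, 0.056 and 0.134), and at 12 h without the first 0 h or the second 12 h replicate (adjusted p = 0.0834 and 0.051).

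Insr and Igf1r, the paired receptors for insulin and insulin-like growth factor, are close relatives. Insr had 2720 and 2220 normalized counts in the EV line at 0 h, and after serum 1339 and 1439 at 2 h, 1614 and 1522 at 6 h, and 1722 and 1585 at 12 h. All 6 serum libraries lay below both starting ones. The log2 changes were -0.82, -0.65 and -0.57 (adjusted p = 3.43e-06, 6.51e-05 and 0.000252), so the lowest level came at 2 h. With E2F1, Insr went from 2550 and 2870 at 0 h to 2634 and 2517, 2274 and 2101, and 2014 and 2243 at 2, 6 and 12 h. The log2 change of -0.31 at 6 h passed (adjusted p = 0.0309), as did that of -0.35 at 12 h (adjusted p = 0.013). Neither held without the second 0 h replicate (adjusted p = 0.215 and 0.124), nor the 12 h call without the first 12 h replicate (0.116), nor the 6 h call without either 6 h library (0.0505 and 0.161). Igf1r varied least of all, from 8095 to 12958 over the 22 libraries, with a 1.5-fold range of group means. At 2, 6 and 12 h of serum it did not pass (log2 change 0.24, -0.04 and -0.21). With quantile normalization it passed as lower at all 3 times (-0.27, -0.37 and -0.39; adjusted p = 0.0436, 0.00837 and 0.00591), and with equal totals at 12 h (adjusted p = 0.0382). With E2F1 it passed only at 12 h, where 8981 and 8130 lay below 10208 and 11342 at 0 h (log2 change -0.33, adjusted p = 0.0247; 0.165 and 0.153 without the second 0 h or 12 h replicate).

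Met, the receptor for hepatocyte growth factor, was the one receptor that was higher at 12 h of E2F1. The line held 5121 and 5092 normalized counts at 0 h, 5229 and 5224 at 2 h, 8270 and 7103 at 6 h, and 6848 and 5802 at 12 h. The 6 h and 12 h pairs lay above both starting libraries and did not overlap each other at 6848 and 7103. The rise was 1.5-fold at 6 h (log2 change 0.59 ± 0.10, adjusted p = 9.71e-05) and 1.23-fold at 12 h (0.30 ± 0.10, adjusted p = 0.0139). The 12 h call was lost with quantile normalization (log2 change 0.11, adjusted p = 0.313) and without the first 12 h or the second 0 h replicate (adjusted p = 0.196 and 0.0569). In the EV line serum took it from 3822 and 4429 to 7656 and 6853 at 2 h (log2 change 0.82 ± 0.10, adjusted p = 8.15e-07), and to 4825 and 4605 at 6 h and 5002 and 4385 at 12 h, which did not pass against 0 h. Against the EV line in doxycycline at the same time both passed as higher (log2 difference 0.41 and 0.50; adjusted p = 0.00163 and 0.000231), as they did without the second EV 0 h replicate (0.0329 and 0.0384). Doxycycline alone gave 4752 and 4773 at 2 h, 3591 and 3519 at 6 h, and 3521 and 3109 at 12 h, below the start at the last times without passing (log2 change -0.31 at 12 h, adjusted p = 0.0922).

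Met lies on chromosome 6 (GRCm38, 17463800 to 17573980, plus strand). Its RefSeq promoter window holds an E-box, an AP-1 match and 3 GC boxes. These letters were not particular to Met. A Ghr window also holds an AP-1 match, the Fgfr2 window an E-box, and windows of Egfr, Igf1r, Axl and Ghr hold GC boxes. The Met stretches around the E-box and the AP-1 match are printed to set them beside the Pdgfra window, which holds none of these letters. Capitals mark the matches, and the stretches lie at chr6:17463825-17463854 and chr6:17463891-17463920 on the plus strand of GRCm38.p6. They lie before the RefSeq start that sets the window, but after the earlier GENCODE gene start of 17463800. By the GENCODE start they are inside the annotated gene and not upstream of it. Which start is in use in these cells was not tested.
Met, E-box and GC box: aacagaCACGTGctgGGGCGGgtacccggg
Met, AP-1: ctgttgcccggcTGAGTCAcgggccgggca
A match of letters is a description of the window and no measure of binding.

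Axl, a receptor of the TAM group that binds Gas6, was among the most abundant of the 10 in every group. It fell with E2F1 at 12 h, from 28840 and 26802 normalized counts to 19351 and 16790 (log2 change -0.63 ± 0.12, adjusted p = 0.000141), while 25976 and 21618 at 6 h did not pass (adjusted p = 0.104), except with equal totals (0.0178) and without the first 6 h replicate (0.043). After serum the EV line went from 24965 and 23524 to 33242 and 35003 at 2 h, 27798 and 22364 at 6 h, and 31987 and 26616 at 12 h. The pairs at 2 h and 12 h lay above the start. The rise at 2 h (log2 change 0.49, adjusted p = 0.00093) was 0.01 with quantile normalization and 0.12 with equal totals, and passed with neither. At 12 h the log2 change of 0.27 stood at the threshold (adjusted p = 0.0499) and was lost with quantile normalization (0.188), with equal totals (0.17), when only the groups compared were fitted (0.108) and without the first or second 0 h or the first 12 h replicate (0.0733, 0.182 and 0.404).

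Ghr fell with E2F1 and with serum. The E2F1 line held 7863 and 8299 normalized counts at 0 h, 9168 and 8740 at 2 h, 6009 and 6100 at 6 h, and 5040 and 4897 at 12 h. The pair at 2 h was above the start and the later pairs below it, and log2 changes of -0.42 at 6 h and -0.70 ± 0.07 at 12 h passed (adjusted p = 6.86e-05 and 9.98e-08). After serum the EV line went from 5146 and 5283 to 5156 and 5556 at 2 h, 4597 and 4933 at 6 h, and 2574 and 2745 at 12 h. The last passed, a 1.96-fold fall (log2 change -0.97 ± 0.07, adjusted p = 1.66e-09), and the value of 0.04 at 2 h and that at 6 h did not. Both earlier times passed as lower in other settings: with quantile normalization (-0.36 and -0.40), with equal totals (-0.34 and -0.35) and against the EV line in doxycycline (-0.51 and -0.24), at adjusted p-values of up to 0.00519. In the EV line with doxycycline alone Ghr was higher at 2 h, at 7544 and 7718 (log2 change 0.55, adjusted p = 0.000262). At 6 h it was at 5857 and 5399, which did not pass (log2 change 0.11, adjusted p = 0.904). At 12 h it was again higher, at 6448 and 6426 (log2 change 0.30, adjusted p = 0.0167). The 12 h call was lost when only the groups compared were fitted (adjusted p = 0.179) and when any 1 of its 4 libraries was left out (adjusted p = 0.0522 to 0.14). The EV libraries at 2 h, which stood apart above, were the EV libraries nearest to the E2F1 line at rest.

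**Figure D2:**
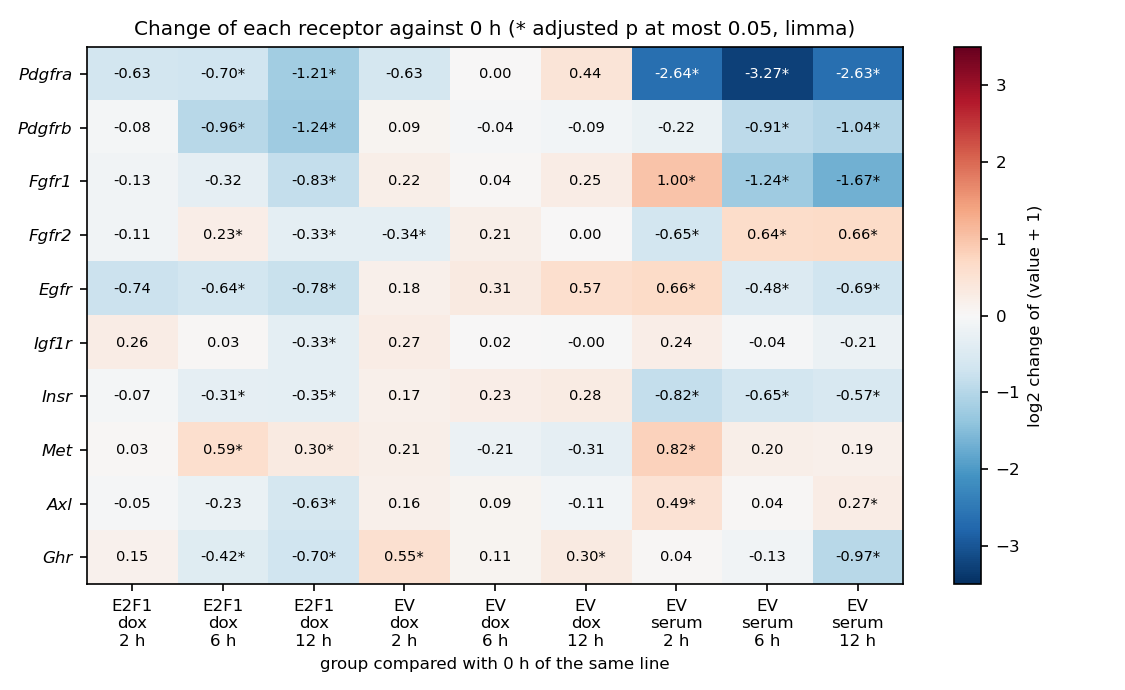
Log2 change of each receptor (rows) in each group against 0 h of its line (columns), as colour and number; an asterisk marks an adjusted p of at most 0.05 (limma). In the column for 12 h of E2F1 every receptor is marked and all but Met (0.30) are negative, while the columns for 2 h and 12 h of serum differ in sign for Fgfr1 (1.00 and -1.67), Fgfr2 (-0.65 and 0.66) and Egfr (0.66 and -0.69).

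To set E2F1 apart from doxycycline, the change in the E2F1 line was compared with that in the EV line at the same time. The 12 h difference passed for 9 of the 10 receptors, 8 lower and Met higher, where 50.5% of all genes passed (27.3% higher and 23.3% lower). Pdgfra differed most, by -1.65 on the log2 scale (95% interval -2.23 to -1.08, adjusted p = 7.43e-05), followed by Egfr at -1.35 (adjusted p = 0.000444), Pdgfrb at -1.15 (adjusted p = 4.55e-06), Fgfr1 at -1.08 (adjusted p = 0.00221) and Ghr at -1.01 (adjusted p = 1.81e-07). Insr, Axl and Fgfr2 differed by -0.63, -0.52 and -0.34, and Met by 0.62 (adjusted p = 0.00141). Igf1r, at -0.33, did not pass (95% interval -0.69 to 0.03, adjusted p = 0.119), but did with quantile normalization (log2 difference -0.52). The call for Fgfr2 was lost without the second E2F1-line or the first EV library of 0 h (adjusted p = 0.0915 and 0.0521), and when only the groups compared were fitted (0.0519). That for Igf1r was gained without the second EV library of 12 h (0.0407). That for Axl was lost without the first E2F1-line library of 0 h, the second of 12 h or the first EV library of 12 h (adjusted p = 0.0506, 0.0672 and 0.0571).

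For Pdgfra, Egfr, Insr, Fgfr1 and Met the 12 h difference includes EV-line changes of 0.44, 0.57, 0.28, 0.25 and -0.31, none of which passed. That for Ghr includes an EV-line rise of 0.30 that passed (adjusted p = 0.0167). At 6 h, 5 receptors passed (34.5% of all genes): Pdgfrb, Egfr, Insr and Ghr lower, by -0.92, -0.96, -0.54 and -0.52, and Met higher, by 0.80. Pdgfra, at -0.70, was just outside (adjusted p = 0.0556) and passed with equal totals, with the replicate number as a block and when only the groups compared were fitted, or without the second E2F1-line library of 6 h, the first EV library of 0 h or the second EV library of 6 h (0.0413, 0.0361 and 0.0262). Axl passed with equal totals (0.0486). Egfr no longer passed without the second replicate of either line at 0 h or the first of E2F1 at 6 h (adjusted p = 0.0538, 0.0645 and 0.07), nor Insr when 1 of 4 libraries was left out (adjusted p = 0.0537 to 0.0884): the second replicate of either line at 0 h, the second of E2F1 at 6 h and the first of EV at 6 h. At 2 h none passed, with 2 at an unadjusted p under 0.05 (0.143% of all genes).

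E2F1 and serum were then compared directly, as the E2F1-line change minus the serum change; both the serum and the doxycycline comparisons use the EV 0 h libraries, so they are not independent. At 12 h, 5 receptors differed (48.8% of all genes). Pdgfra and Fgfr1 fell less with E2F1, by 1.41 and 0.84 on the log2 scale (95% intervals 0.84 to 1.99 and 0.29 to 1.40; adjusted p = 0.000369 and 0.013), and so did Ghr, by 0.27 (adjusted p = 0.0285). Fgfr2 and Axl went down with E2F1 and up with serum, and differed by -0.998 and -0.89 (adjusted p = 1.27e-06 and 0.000215). The call for Ghr was lost with quantile normalization (log2 difference 0.22), when only the groups compared were fitted (adjusted p = 0.0762), or without the first E2F1-line library of 0 or 12 h, the second EV library of 0 h or the first serum library of 12 h (adjusted p = 0.0727 to 0.108). That for Fgfr1 was lost without the first EV 0 h, the second serum 12 h or the second E2F1-line 0 h replicate (adjusted p = 0.085, 0.0834 and 0.0511).

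For the other 5 no difference passed at 12 h, and the intervals bound its size: -0.51 to 0.11 for Pdgfrb, -0.49 to 0.24 for Igf1r, -0.11 to 0.56 for Insr, -0.18 to 0.42 for Met and -0.66 to 0.48 for Egfr. At 6 h, 5 receptors differed (57.9% of all genes): Pdgfra by 2.57, Fgfr1 by 0.92, Met by 0.39, Fgfr2 by -0.41 and Ghr by -0.29. Pdgfra and Fgfr1 had negative log2 changes with both E2F1 and serum and Fgfr2 positive ones, each smaller in size with E2F1. The call for Met was lost when 1 of 5 libraries was left out (adjusted p = 0.0532 to 0.133): either E2F1-line library of 0 h, its first of 6 h, the second EV library of 0 h or the second serum library of 6 h. That for Ghr was lost without the second E2F1-line library of 0 h, the first EV library of 0 h or the second serum library of 6 h (adjusted p = 0.0505 to 0.0703), with equal totals (0.0869) and when only the groups compared were fitted (0.0659). Insr gained a call with equal totals (0.0275) and without the second EV library of 0 h (0.0195). At 2 h, 7 differed (56.7% of all genes), by 2.00, 0.75 and 0.54 for Pdgfra, Insr and Fgfr2. For Egfr, Fgfr1, Met and Axl the differences were -1.40, -1.12, -0.78 and -0.54. No receptor passed against 0 h in the E2F1 line at 2 h. Pdgfra, Insr and Fgfr2 were at -0.63, -0.07 and -0.11 there, against -2.64, -0.82 and -0.65 with serum. Egfr, Fgfr1, Met and Axl were at -0.74, -0.13, 0.03 and -0.05, against 0.66, 1.00, 0.82 and 0.49 with serum. With quantile normalization the 2 h difference for Axl was 5.11e-05 and that for Fgfr1 -0.55, and neither passed; with equal totals that for Axl was -0.17 and did not pass. Calls were gained with quantile normalization by Ghr, Pdgfrb and Igf1r (log2 difference 0.50, 0.52 and 0.54), and with equal totals by Ghr and Pdgfrb (0.48 and 0.51).

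**Figure D3:**
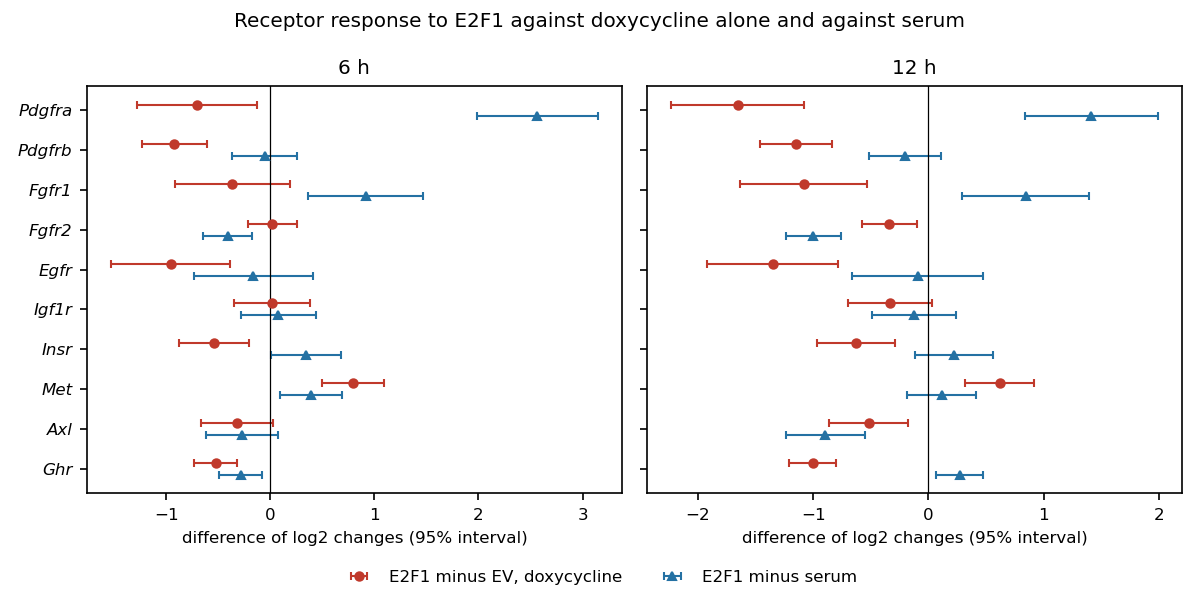
Difference between the log2 change in the E2F1 line and that in the EV line with doxycycline (circles) or serum (triangles), x axis, for each receptor, y axis, at 6 h (left) and 12 h (right); bars are 95% intervals from limma. At 12 h, 8 circles lie left of 0 with intervals that exclude it and Met lies right at 0.62, whereas the triangles of Pdgfra (1.41) and Fgfr1 (0.84) lie right and those of Fgfr2 (-0.998) and Axl (-0.89) left.

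The make-up of the receptor transcript pool was described by the share of each gene in the sum of the 10 levels per kb. In the EV line Pdgfra made up 39.7% ± 1.74 (SD, n = 2) at 0 h, and 7.13% ± 0.191, 7.37% ± 1.56 and 10.6% ± 0.89 at 2, 6 and 12 h of serum. Axl went the other way, from 29.9% ± 1.97 to 47.0% ± 0.527, 54.3% ± 1.51 and 59.1% ± 0.653. Fgfr1 went from 9.49% ± 1.47 to 21.0% ± 0.039 at 2 h and 4.87% ± 0.547 at 12 h. The serum groups did not overlap the start for Pdgfra or Axl at any time. With E2F1 the shift was smaller: Pdgfra went from 29.5% ± 2.06 at 0 h to 21.8% ± 2.86 at 12 h, and Axl from 33.7% ± 1.45 to 37.3% ± 3.08. The sum of the 10 levels went from 16394 ± 143 to 9612 ± 172 per kb in the E2F1 line at 12 h and from 16159 ± 1740 to 9844 ± 1168 with serum at 12 h, while doxycycline alone gave 18361 ± 1398.

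**Figure D4:**
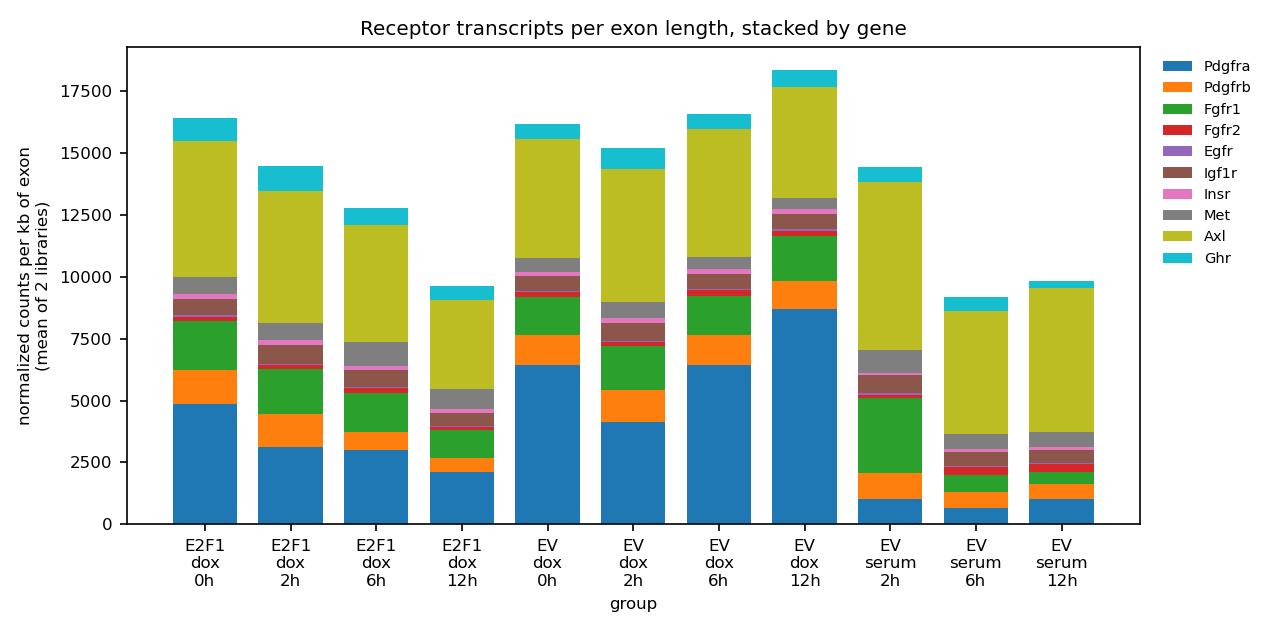
Stacked bars of the mean level of each receptor in normalized counts per kb of exon (y axis, from 0; mean of 2 libraries) in each of the 11 groups (x axis). The bars for 12 h of E2F1 and for 6 h and 12 h of serum are the lowest, at 9612, 9164 and 9844, and differ in the Pdgfra segment, which is 21.8% of the first and 7.37% and 10.6% of the others.

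The ligands of these receptors were looked at next. Of 25 listed ligands 12 were in the table, and at 2 h of serum 7 were higher and 4 lower, where 70.9% of all genes passed. The largest log2 changes were those of Fgf2 (6.89), an FGF receptor ligand, and of the Egfr ligands Ereg (6.71) and Hbegf (5.09), which were still 3.31 and 3.02 for Fgf2 and Ereg at 12 h, when Igf1, the ligand of Igf1r, was at -2.69. With E2F1, 2 ligands were higher and 3 lower after 6 h, whereas after 12 h the counts were 3 and 6 (51.7% and 61.5% of all genes passed). Pdgfa, a ligand of Pdgfra, rose to a log2 change of 1.87 at 6 h, as Hbegf did to 1.59, and at 12 h Igf1 fell to -1.49 and Gas6, the Axl ligand, to -0.81. Among the IGF-binding proteins, 3 of 7 were present, and at 12 h of E2F1 Igfbp4 and Igfbp6 were lower (-1.34 and -0.71). In the EV line with doxycycline alone some of these also differed from 0 h at 2 h. Pdgfa was at 0.91, Gas6 at 1.23 and Igfbp4 at -1.13, and all 3 passed. No ligand or IGF-binding protein passed there at 6 or 12 h. The EV libraries at 2 h are those that stood apart above, and what part this plays here was not tested.

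Of 22 genes present that limit receptor signalling, 14 were higher and 4 lower at 2 h of serum, where 37.5% of all genes were higher and 33.5% lower, and the median log2 change was 0.47. At 12 h of serum 9 were higher, 4 lower and 9 did not pass, where 36% of all genes were higher and 29.7% lower. Errfi1, an inhibitor of Egfr, led at 2 h (log2 change 3.33), beside the receptor phosphatase gene Ptprj (3.32) and Cish, which is induced by cytokine receptor signals (2.64). With E2F1, 7 were higher and 4 lower after 6 h, against 7 and 9 after 12 h (51.7% and 61.5% of all genes passed). The largest changes at 6 h were rises, of Ptprj (2.78), Lrig3 (0.91) and Fgfrl1 (0.83). At 12 h Ptprj was at 1.90, Errfi1 at -1.37 and Socs1 at -0.88. Ptprj had a mean of only 12 normalized counts in the E2F1 line at 0 h. Errfi1 was already lower at 2 h, at -1.63 in the E2F1 line and at -1.38 in the EV line with doxycycline alone (adjusted p = 0.0246 and 0.0257).

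Of 24 adaptors and proximal signalling genes, all present, 12 were higher and 2 lower at 6 h of E2F1, with a median log2 change of 0.37. Of all genes 51.7% passed there, 28.8% as higher and 22.9% as lower, against a median of -0.03. Gab2, a docking protein, had a log2 change of 2.48, Jak2, the kinase used by Ghr, 1.34, and Ptpn11, which encodes the phosphatase SHP2, 1.12. By 12 h of E2F1 9 were higher and 8 lower (61.5% of all genes passed). With serum 8 were higher and 10 lower at 2 h (70.9% of all genes), where Irs1, a substrate of Insr and Igf1r, fell by 2.55 on the log2 scale and Gab2 rose by 2.11; Irs2 was at -1.47 at 12 h, when 5 were higher and 11 lower (65.7% of all genes).

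Co-receptors and other receptor kinases were mixed. At 2 h of serum 7 of 11 co-receptors were higher and 2 lower, where 70.9% of all genes passed, led by Cd44 (3.48) and by Sdc4 (2.59) and Gpc1 (2.16), both heparan sulfate proteoglycans. At 12 h of E2F1, 4 were higher and 3 lower, where 61.5% of all genes passed, with Gpc1 at 1.27 and Lrp1, an endocytic receptor, at -1.17. Of 42 other receptor tyrosine kinases 21 were present. In the same comparisons 8 of these were higher and 6 lower at 2 h of serum, with Flt1 at 3.43, Mertk, the relative of Axl, at -2.89 and Epha2 at 2.56. At 12 h of E2F1, 5 were higher and 6 lower, with Ntrk3 at -1.42, Mertk at -1.34 and Ror2 at 1.09.

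FOXO transcription factors are switched off by AKT, and Insr is among the genes they are known to activate. Of 15 other genes known as FOXO targets, all present, 13 were lower and 2 higher at 2 h of serum, where 33.5% of all genes were lower and 37.5% higher. Their median log2 change was -1.54, against 0.03 for all genes. Txnip stood at -5.11, Ccng2 at -3.89 and Pik3ip1 at -3.27. At 12 h of serum 12 were lower and 1 higher (29.7% and 36% of all genes). With E2F1, 6 were lower and 4 higher after 6 h (22.9% and 28.8% of all genes), against 8 and 3 after 12 h (29.7% and 31.8%), at a median of -0.30; Cdkn1b, which encodes the cell cycle inhibitor p27, rose to 1.10 and Pik3ip1 was at -1.62.

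The genes whose group means followed each receptor most closely were found by the Pearson correlation of log2(value + 1) over the 11 groups, a description in which groups share libraries of the same scaling. Ypel3, Appl2 and Pnrc1 were nearest to Pdgfra (0.988, 0.987 and 0.983), and Il17rd, Arrdc2 and Gm37494 to Insr (0.986, 0.984 and 0.984). Cpq was nearest to both Fgfr1 (0.987) and Egfr (0.944), and Fgfr1 was the third nearest to Egfr (0.903). Adss, Polg and Dgkd were nearest to Met (0.973, 0.969 and 0.959), Cry2, Elmo3 and Fbxo3 to Pdgfrb (0.969, 0.951 and 0.949), and Osgin1, Sec16b and Stk25 to Ghr (0.939, 0.938 and 0.933). For Fgfr2 they were Cdsn, Sipa1l1 and Cdc42ep3 (0.962, 0.946 and 0.915). Those of Igf1r (P2rx4, 0.937) and Axl (Ktn1, 0.912) depended on the scaling, with 0.50 and 0.659 after quantile normalization, as did Elmo3 for Pdgfrb (0.662). For Egfr, Cpq was then at 0.87, and Fgfr1 was at 0.823 and rank 28. Among the receptors, Pdgfra and Insr were the closest pair (0.936), then Fgfr1 and Egfr (0.903), and Fgfr1 and Fgfr2 the most opposed (-0.801).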

How the data were processed

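Polyadenylated RNA of 22 libraries was sequenced as paired-end reads, per the labels' protocols. FastQC, Trimmomatic, HISAT2, featureCounts, DESeq2 and the build mm10 are named in the submitters' processing notes, without versions or roles. The main table holds a score per gene and library, normalized counts that the authors scaled and rounded to whole numbers, per its file header. Their tables of comparisons hold a log2 fold change and an adjusted p-value per gene, as deposited, only for genes past a log2 change of about 2. The scaling method and use of strand are not given in the sources used here.

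Groups and replicate numbers came from the labels. All 11208 genes passed a filter of at least 10 in 2 libraries. Log2(value + 1) was fitted with limma 3.58.1 in R 4.3.3, with 11 group means over 22 libraries, 11 residual degrees of freedom and a mean-variance trend, and p-values were adjusted by Benjamini-Hochberg over all genes in each of 16 contrasts. On simulated data for 12 h of serum, with 11208 genes, 91 of 107 genes changed by 1 on the log2 scale and 93 of 93 changed by 2 were called. Of the unchanged genes 11 were called too. Few genes were changed there, whereas 65.7% of all genes passed in the real comparison. The simulation therefore does not show how the test behaves when most genes change. The serum series was compared with the EV 0 h libraries, since the authors' tables name a serum 0 h group with no libraries of its own.

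The receptors and all lists (ligands, IGF-binding proteins, co-receptors, adaptors, limiting genes, other receptor kinases, FOXO targets, cell type markers) came from general knowledge, with earlier results of these data known. Of each list, up to 3 genes of largest change that passed were named per comparison, and for each receptor its 3 nearest genes. Levels per kb use exon lengths of GENCODE M21, in which all 10 receptor identifiers had the same version. Promoters are from RefSeq, GRCm38.p6. Alternatives were a pseudocount of 8, no filter, a mean of at least 500, quantile normalization, equal totals, a replicate block, a fit of just the groups compared, a required 2-fold change, the EV line with doxycycline as reference for serum, and leaving out each library. Fits without the 2 h doxycycline libraries were chosen after seeing the data. Read depth is not given by the normalized values, and what it adds to the spread between 2 libraries was not tested.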

Additional observations from a re-analysis of the deposited data

Results flagged for a closer look

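The response to doxycycline differed between the E2F1 line and the EV line, by a limma test of the difference itself, for 5 receptors at 6 h and 9 at 12 h, where 34.5% and 50.5% of all genes passed. The differences of log2 changes at 6 h were -0.92 for Pdgfrb, -0.96 for Egfr, -0.54 for Insr, -0.52 for Ghr and 0.80 for Met. At 12 h they were -1.65 for Pdgfra, -1.15 for Pdgfrb, -1.08 for Fgfr1, -0.34 for Fgfr2, -1.35 for Egfr, -0.63 for Insr, -0.52 for Axl, -1.01 for Ghr and 0.62 for Met. Leaving out 1 library could end the calls for Egfr and Insr at 6 h and for Fgfr2 and Axl at 12 h.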

How the results depend on the processing

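A pseudocount of 8, no filter or a mean of at least 500 changed no call of a receptor. With at least a 2-fold change required, the receptors that passed were 0 at 6 h and 2 at 12 h of E2F1, 0 at 2 h and 0 at 12 h of doxycycline, 1, 2 and 3 at 2, 6 and 12 h of serum, 0 and 5 for the E2F1 minus EV difference at 6 and 12 h, 3, 1 and 1 for E2F1 minus serum, and 0 between the lines at rest. When only the groups compared were fitted there were 2 at 2 h of E2F1, 0 at 12 h of doxycycline and 1 between the lines, and quantile normalization gave 1 at 2 h of E2F1. Equal totals moved the median log2 change of all genes by -0.37 at 2 h and -0.21 at 6 h of serum and by -0.12 at 6 h of E2F1, and quantile normalization moved it by -0.12 for the 12 h difference between lines. Values that were near 0 changed sign with quantile normalization and equal totals: Igf1r at 6 h of E2F1 (-0.16 and -0.082), and, with the EV line in doxycycline as reference given last, Igf1r at 2 h of serum (-0.27, -0.13 and -0.032), Ghr at 2 h of serum (-0.36, -0.34 and -0.51), Axl at 6 h of serum (-0.25, -0.17 and -0.050) and Met at 6 h of serum (-0.065 and -0.018). The 2 h difference for Axl between E2F1 and serum was 5.11e-05 with quantile normalization. The causes were not tested. The replicate numbers were not taken to pair libraries, since deviations of same-numbered libraries correlated from -0.28 to 0.46 over 55 pairs of groups, with 18 above 0.1. With the replicate number as a block, Pdgfra also passed at 2 h of doxycycline (-0.63), which made 3 receptors, and in the 6 h difference between lines (-0.70), which made 6. Fits without the EV or without all 2 h doxycycline libraries ended 2 calls each, Axl at 12 h of serum and Met between the lines.

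Leaving out 1 library, with the lone one assumed to vary like the rest, gave 4 to 6 receptors at 6 h of E2F1, 1 to 2 at 2 h and 0 to 2 at 12 h of doxycycline, 3 to 6 for the 6 h difference between lines, 3 to 5 for E2F1 minus serum at 6 h and 1 to 2 between the lines. Over all receptors and comparisons 62 such values lost a call, 11 gained one, 15 changed sign and 516 did none of these. Log2 values that crossed 0 were Igf1r at 6 h of E2F1 (-0.10 to 0.17), Ghr at 2 h of serum (-0.016 to 0.092), Igf1r and Axl at 6 h of serum (-0.20 to 0.11 and -0.12 to 0.20), and, for E2F1 minus serum, Igf1r at 2 h (-0.085 to 0.11), Egfr at 12 h (-0.31 to 0.13) and Met at 12 h (-0.0027 to 0.24). Changes under about 0.3 on the log2 scale mostly did not pass, and what depth adds to this was not tested.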
